A study of Mus musculus with 11 samples.

Results

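The 134 long noncoding RNA genes described here were those counted well enough in every library of an siRNA experiment on the cap methyltransferase CMTR1 in mouse embryonic stem cells (ESCs). They were chosen by their annotated type and by their counts in all 3 groups, so that level was used in the choice and fold change was not. They were all autosomal genes that GENCODE types as lincRNA, antisense or processed transcript and that had at least 50 counts in each of the 11 libraries. Gas5, H19, Meg3, Rian, Malat1, Neat1, Gm26917, Gm42418 and genes with symbols beginning Snhg were left out by name. The members numbered 71 lincRNA, 40 processed transcript and 23 antisense genes, out of 54838 gene identifiers in the count files, of which 16073 were tested. Of 9275 genes of these types, 161 reached 50 counts in each library on any chromosome. Of these, 9 lay on the X chromosome and 18 were left out by name. Just inside the limit were 4632415L05Rik with a lowest count of 50, and A830082N09Rik and Gm40040 with 51. Just outside it were 3110056K07Rik, Gm13067 and Gm48023 with 48 each.

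The cells were E14, an established mouse ESC line grown with LIF and serum replacement on gelatin, and total RNA was sequenced after depletion of ribosomal RNA. The groups compared, each taken 36 h after transfection, were a control scramble siRNA with 3 libraries, CMTR1 siRNA 1 with 4 and CMTR1 siRNA 2 with 4. All groups therefore shared the same line and siRNA transfection, and a knockdown lowers a transcript without deleting its gene. The labels number replicates but do not say that they came from separate cultures. The study's methods speak of biological replicates for sequencing without tying them to these libraries, so the p-values measure the spread between these libraries, which may be technical in part.

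Long noncoding RNAs are mostly RNA polymerase II transcripts that are capped, often spliced, and not known to be translated. Some act as RNAs on nearby or distant genes, and others are chiefly the carriers from which small nucleolar RNAs (snoRNAs) or microRNAs (miRNAs) are cut. CMTR1 methylates the ribose of the first transcribed nucleotide next to the cap, a position that coding and noncoding polymerase II transcripts share.

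The labels were first checked with the targeted gene. Cmtr1 measured 21.3, 21.7 and 17.9 CPM, counts scaled to a common library total, in the control libraries, 21.1, 21.3, 16.2 and 18 CPM with siRNA 1, and 15.6, 16.8, 16.4 and 19.5 CPM with siRNA 2. The libraries of both siRNAs overlapped those of control. The log2 fold change was -0.088 for siRNA 1 (edgeR adjusted p = 0.743, exact permutation p = 0.4) and -0.25 for siRNA 2 (edgeR adjusted p = 0.144, exact permutation p = 0.114, both two-sided). The 95% intervals ran from -0.30 to 0.12 for siRNA 1 and from -0.46 to -0.04 for siRNA 2, so at most a small fall of the Cmtr1 transcript was present, and CMTR1 protein was not measured in these files. The stem cell label was checked with 8 ESC markers (Pou5f1, Sox2, Nanog, Zfp42, Esrrb, Dppa5a, Tdh and Utf1), which summed to between 1463 and 1820 CPM over the libraries. Totals ran from 6738478 to 8382318 gene counts per library.

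The sequences around the annotated starts are given here for members whose level passed a test, because the first transcribed bases of capped transcripts are where CMTR1 acts. Bc1, which RNA polymerase III transcribes, is shown for contrast. Each line gives 60 bases before the start in lower case and the first 40 transcribed bases in capitals, 5′ to 3′, from the RefSeq promoter table in build GRCm38.p6. The RefSeq start was at most 3 bases from the GENCODE start in each.
Lncenc1, chr13:97434910-97435009, plus strand: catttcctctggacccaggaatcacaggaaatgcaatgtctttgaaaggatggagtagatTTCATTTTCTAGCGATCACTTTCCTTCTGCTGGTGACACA
Zfas1, chr2:167062874-167062973, plus strand: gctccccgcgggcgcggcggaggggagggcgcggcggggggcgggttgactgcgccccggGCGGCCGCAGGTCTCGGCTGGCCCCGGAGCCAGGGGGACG
2410006H16Rik, chr11:62602817-62602916, plus strand: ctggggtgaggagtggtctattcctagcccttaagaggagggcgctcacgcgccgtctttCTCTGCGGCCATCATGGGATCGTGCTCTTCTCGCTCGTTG
1810032O08Rik, chr11:116671600-116671699, plus strand: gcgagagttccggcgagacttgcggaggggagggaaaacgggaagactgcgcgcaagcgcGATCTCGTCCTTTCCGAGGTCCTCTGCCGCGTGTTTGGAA
Rab26os, chr17:24528191-24528290, plus strand: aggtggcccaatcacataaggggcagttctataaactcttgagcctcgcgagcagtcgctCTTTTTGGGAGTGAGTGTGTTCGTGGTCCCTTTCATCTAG
1110038B12Rik, chr17:34952432-34952531, minus strand: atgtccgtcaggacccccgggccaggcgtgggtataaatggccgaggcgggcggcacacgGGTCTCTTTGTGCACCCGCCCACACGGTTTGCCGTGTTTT
1700020I14Rik, chr2:119594236-119594335, plus strand: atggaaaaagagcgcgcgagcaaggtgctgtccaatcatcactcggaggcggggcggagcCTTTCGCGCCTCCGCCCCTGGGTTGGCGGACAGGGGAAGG
Gm10451, chr12:76444437-76444536, plus strand: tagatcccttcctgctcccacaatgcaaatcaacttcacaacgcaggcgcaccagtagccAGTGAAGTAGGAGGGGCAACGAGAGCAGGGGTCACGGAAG
Bc1, chr7:144914410-144914509, plus strand: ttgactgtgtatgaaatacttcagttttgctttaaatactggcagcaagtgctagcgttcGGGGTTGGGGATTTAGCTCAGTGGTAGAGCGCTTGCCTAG

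The first capital was G in Zfas1, 1810032O08Rik, 1110038B12Rik and Bc1, C in 2410006H16Rik, Rab26os and 1700020I14Rik, T in Lncenc1 and A in Gm10451. At the GENCODE starts of all 134 members, G was the first base of 42.5%, A of 32.1%, T of 14.2% and C of 11.2%. Over 13216 protein-coding genes tested the shares were 45.7% G, 26.8% A, 16.7% C and 10.8% T. A start of C followed by 4 pyrimidines, the letters of a terminal oligopyrimidine tract, was found in 2.24% of members and 2.38% of coding genes. At RefSeq starts it was found in 6 of 82 members, or 7.32%, against 2.49% of all 27025 RefSeq promoters, and Rab26os and 1700020I14Rik above are among the 6. The rest of the 6 had RefSeq starts far from the GENCODE start. The offsets were -2384 bases in Platr3, 447 in Miat, 1062 in Gm29895 and 12627 in Gm19705. The RefSeq and GENCODE shares therefore describe different starts in these members. At the 82 members with a RefSeq start, the share of A was 20.7%, a value that differs both in the start used and in the members included. Median log2 fold changes for siRNA 1 and siRNA 2 were 0.051 and 0.054 over the 43 members that begin with A, and for the other bases they were 0.009 and 0.068 over the 57 with G, 0.027 and 0.051 over the 19 with T, and -0.018 and -0.12 over the 15 with C. Among the 300-base RefSeq promoters of these 82 members, CACGTG was present in 13.4%, GGGCGG in 43.9% and TATAAA in 8.54% on either strand. Over all 27025 RefSeq promoters of that length the shares were 7.24%, 35.9% and 14.2%.

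The members were few in number, and level was part of how they were chosen. The coding genes set beside them below passed the same count limit, so similar levels per length follow in part from that limit. Together they held between 0.595% and 0.652% of the gene counts of a library, and their median lowest count was 126. The summed level was 6153 ± 211 CPM in control (SD, n = 3), 6147 ± 152 CPM with siRNA 1 (SD, n = 4) and 6185 ± 243 CPM with siRNA 2 (SD, n = 4), and these ranges overlapped. Per kilobase of exon in control, the members ran from 0.751 to 152 CPM, with a median of 8.77 against 9.76 for protein-coding genes with at least 50 counts in each library, and 61 of the 134 were above that coding median. On that scale the highest was Gm15564 at 152 CPM per kb, followed by Cct6a at 130, Bc1 at 111, 2410006H16Rik at 103, Lncenc1 at 98.6 and 1110038B12Rik at 78.5. The lowest was Sox2ot, an RNA that overlaps the Sox2 gene, at 0.751 CPM per kb.

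Several members carry the noncoding type in GENCODE only. RefSeq records were matched to 105 of them, and RefSeq lists 84 as noncoding RNA, 17 as protein-coding and 4 as pseudogenes. Cct6a, which encodes a subunit of the cytosolic chaperonin, and Trerf1, which encodes a zinc-finger transcription regulator, are among the 17, and they were kept because the rule reads GENCODE. 1810032O08Rik is the RefSeq gene Snhg16 and was not caught by the rule on Snhg symbols. In 100 members under 10% of exonic bases lay in exons of another gene, while 6 shared over 50%. The library kit keeps strand, but the strand setting of the counting is not given in the sources used here, so a member that overlaps a gene on the other strand cannot be told apart from it with certainty. In 30 members more than 10% of the 75-base words of their transcripts, the read length, also occur in transcripts of other genes, and their counts are uncertain for the same reason.

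With siRNA 1, 10 of the 134 members passed the test against control, 6 lower and 4 higher. That is 7.46% of members, against 4.67% of all genes tested and 6.49% of genes with at least 50 counts in each library. Of all genes tested, 1.97% passed as lower and 2.71% as higher. The lower members were Lncenc1, Platr14, Zfas1, Gm29895, 1110038B12Rik and Mir124a-1hg, and the higher ones were Gm53, Ptprv, Trerf1 and Pvt1. All of these changes were small, from -0.38 in Platr14 to 0.43 in Ptprv on the log2 scale. The median log2 fold change over the members was 0.023, and over all genes tested it was 0.024. In 22 members the siRNA 1 libraries did not overlap control, and 15.5% of all genes tested were separated in this way. TMM factors, under which the median of all genes was 0.004, gave 7 lower and 4 higher. DESeq2 called 6 members, 5 lower and 1 higher. Leaving out 1 library gave 4 to 13 calls. The lowest counts were 4 without control replicate 2, 5 without control replicate 3 or siRNA 1 replicate 2, and 6 without control replicate 1 or siRNA 1 replicate 1.

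With siRNA 2, 16 members passed, 6 lower and 10 higher. That is 11.9% of members, against 9.72% of all genes tested and 12.4% of genes with at least 50 counts in each library. Of all genes tested, 3.55% passed as lower and 6.17% as higher. The lower members were Zfas1, Lncenc1, 2410006H16Rik, 1810032O08Rik, Rab26os and 1700020I14Rik. The higher ones were Trerf1, B130055M24Rik, Gm10451, Gm20045, A630072M18Rik, Platr4, Bc1, Miat, Brip1os and Gm45250. The fold changes ran from -0.48 in Rab26os to 0.50 in A630072M18Rik on the log2 scale. The median over members was 0.048, against 0.029 over all genes tested. In 28 members the siRNA 2 libraries did not overlap control, against 19.4% of all genes tested. The split of lower and higher calls moved with the scaling, and TMM factors gave 8 lower and 7 higher, and DESeq2 gave 7 lower and 4 higher. Leaving out 1 library gave 9 to 17 calls, with 9 without control replicate 2 or control replicate 3 and 10 without siRNA 2 replicate 1. Both siRNA comparisons use the same 3 control libraries, so their values are set side by side below and are not independent of each other.

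**Figure D1:**
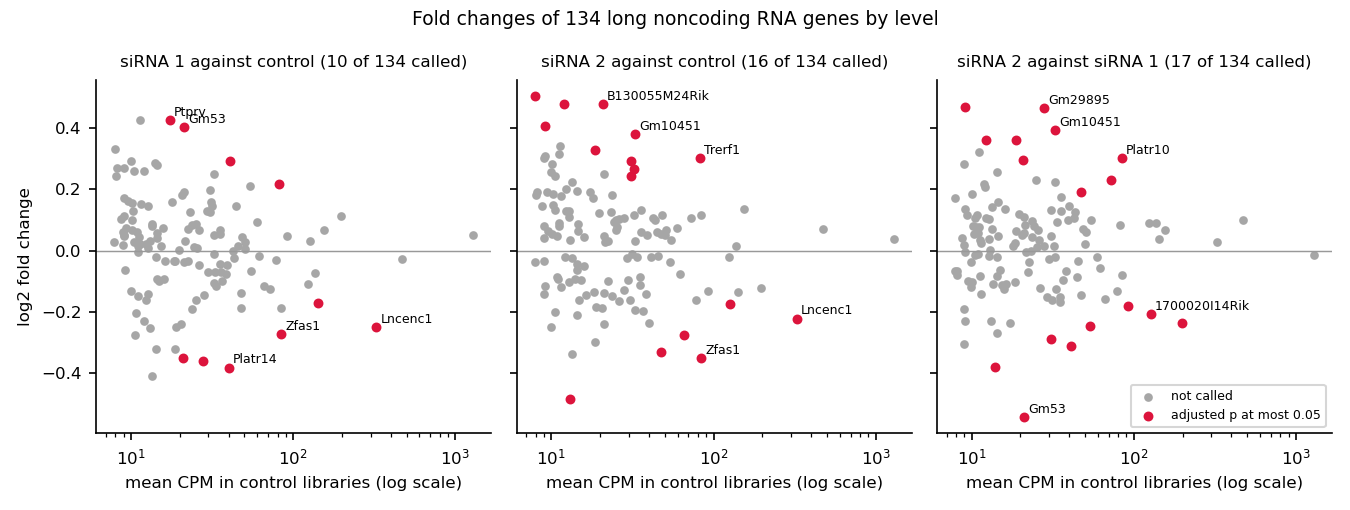
Log2 fold change of each of the 134 members (vertical axis) against its mean CPM in control (horizontal axis, log scale) for the 3 comparisons; red points have an edgeR adjusted p of at most 0.05, and the 5 lowest adjusted p in each panel are named. The points lie between -0.54 and 0.50 in all panels, and called members occur at low and at high level.

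Lncenc1, an ESC-enriched lincRNA linked to naive pluripotency, had the highest control CPM, not scaled for length, of the members that fell. It fell with both siRNAs. It lies on chr13:97434970-97497007 (GRCm38, plus strand) and measured 334, 324 and 318 CPM in control, 267, 283, 278 and 268 CPM with siRNA 1, and 274, 278, 283 and 282 CPM with siRNA 2. Every siRNA library was below every control library. siRNA 1 gave a log2 fold change of -0.25 (SE 0.043, edgeR adjusted p = 0.000186) and siRNA 2 one of -0.22 (SE 0.043, edgeR adjusted p = 0.000472). These calls were kept in each of the 11 fits that left out 1 library. Platr14, one of the pluripotency-associated transcripts (Platr), measured 42.2, 38.5 and 39.2 CPM in control, 28.9, 32.0, 30.2 and 31.3 CPM with siRNA 1, and 31.1, 29.5, 40.3 and 34.9 CPM with siRNA 2. The siRNA 1 libraries were all below control, whereas 1 siRNA 2 library lay within the control range. On the log2 scale it was -0.38 with siRNA 1 (SE 0.084, edgeR adjusted p = 0.00332) and -0.24 with siRNA 2 (edgeR adjusted p = 0.0594).

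The pluripotency-linked members were mostly below control with siRNA 1 and on both sides of it with siRNA 2. Of 10 members on this list, 2 fell with siRNA 1 (Lncenc1 and Platr14) and none rose, and the list median was -0.17 on the log2 scale. Of the 10, 8 were below 0 with siRNA 1, 5 had an unadjusted p under 0.05, and in 5 the libraries did not overlap control, against 15.5% of all genes tested. The 2 calls are 20% of the list, against 4.67% of all genes tested. Of those 16073 genes, 6944 were below 0 with siRNA 1 and 2698 had an unadjusted p under 0.05. Among the 9937 with at least 50 counts in each library, the numbers were 4313 and 1998. With siRNA 2, Lncenc1 fell and Platr4 rose, and the median was 0.002, with 5 of the 10 below 0. These calls are again 20% of the list, against 9.72% of all genes tested. Between the siRNAs 9 of the 10 were higher with siRNA 2, and Platr10 was the 1 that passed, where 7.44% of all genes tested passed. Platr4 measured 34.7, 29.6 and 28.7 CPM in control, 36.5, 37.0, 34.5 and 30.5 CPM with siRNA 1, and 37.2, 39.2, 35.3 and 39.8 CPM with siRNA 2. All siRNA 2 libraries were above control, and the log2 fold change was 0.29 (SE 0.082, edgeR adjusted p = 0.0161). This call was lost without control replicate 2 or control replicate 3 (adjusted p = 0.0994 and 0.123) and with DESeq2 (adjusted p = 0.092). Platr3, Platr10, Platr12, Platr20, Platr22, Eprn and 2700038G22Rik did not pass against control with either siRNA. The RNA Cyrano (1700020I14Rik) was written on this list as Cyrano and Oip5os1. It was not matched under those names and is not among the 10, although it passed as lower with siRNA 2. The ESC marker list was lower in the same siRNA libraries, and it summed to between 1678 and 1820 CPM in control, 1463 and 1605 CPM with siRNA 1, and 1519 and 1590 CPM with siRNA 2, with none of the 8 markers at 0, and its part in these results was not tested. In bulk RNA, fewer cells of a type and less RNA per cell cannot be told apart.

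Of the 6 members that fell with siRNA 2, 4 have a snoRNA gene inside them. GENCODE places a gene typed as snoRNA within 12 members, of which AI506816 counts only through a record named Mir3096. In most such hosts known the snoRNA lies in an intron and is released after splicing. Here 4 hosts (Zfas1, Rab26os, Dancr and Gm26945) form 1 exon block once all their annotated transcripts are merged, so the snoRNA lies within the merged exon bases. Of these 4, 2 fell with siRNA 2. The counting set ambiguous reads apart from the gene counts, and whether reads over the snoRNA were counted for the host is not known. With siRNA 1, 2 of the 12 passed as lower and none as higher, and the median log2 fold change was -0.11. With siRNA 2, 4 of the 12 passed as lower and none as higher, and the median was -0.16. Of all genes tested, 1.97% passed as lower with siRNA 1 and 3.55% with siRNA 2. Among the 9937 genes with at least 50 counts in each library, 281 and 501 passed as lower. In the other 122 members, the medians were 0.028 and 0.051, with 4 lower and 4 higher calls for siRNA 1 and 2 lower and 10 higher calls for siRNA 2. The list was drawn up with the results known and carries no test.

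Zfas1, host of Snord12, measured 89.6, 87.7 and 75.2 CPM in control, 68.7, 66.2, 73.2 and 71.1 CPM with siRNA 1, and 62.4, 60.6, 70.9 and 70.5 CPM with siRNA 2. All 8 siRNA libraries were below the lowest control library. Against control this was -0.27 on the log2 scale with siRNA 1 (SE 0.065, edgeR adjusted p = 0.00724) and -0.35 with siRNA 2 (SE 0.065, edgeR adjusted p = 0.000261). Without control replicate 1 or control replicate 2 the siRNA 1 call was lost (adjusted p = 0.0745 and 0.0802). 2410006H16Rik, host of Snord49a, Snord49b and Snord65, measured 52.4, 45.1 and 45.0 CPM in control, 41.6, 39.0, 42.1 and 44.5 CPM with siRNA 1, and 34.5, 37.7, 40.7 and 38.2 CPM with siRNA 2. No siRNA library reached the control range. The log2 fold change was -0.19 with siRNA 1 (edgeR adjusted p = 0.15) and -0.33 with siRNA 2 (SE 0.074, edgeR adjusted p = 0.00222). Rab26os, an antisense gene with 1 exon block of 497 bases that contains Snord60, measured 14.2, 14.3 and 10.9 CPM in control, 10.4, 10.6, 11.8 and 11.5 CPM with siRNA 1, and 9.09, 10.3, 9.44 and 8.89 CPM with siRNA 2. The siRNA 2 libraries were all below control, and the log2 fold change was -0.48 (SE 0.126, edgeR adjusted p = 0.00961). Without control replicate 1 or control replicate 2 this call was lost (adjusted p = 0.0619 and 0.083).

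1810032O08Rik (Snhg16), host of Snord1a, Snord1b and Snord1c, measured 68.8, 60.7 and 69.0 CPM in control, 58.8, 62.4, 61.3 and 61.3 CPM with siRNA 1, and 48.0, 52.7, 63.6 and 54.2 CPM with siRNA 2. Although the siRNA 2 libraries overlapped control through replicate 3, the member passed with a log2 fold change of -0.27 (SE 0.07, edgeR adjusted p = 0.00779). The call was lost without control replicate 3 or siRNA 2 replicate 1 (adjusted p = 0.0634 and 0.0535). 1110038B12Rik, host of Snord52, measured 143, 143 and 140 CPM in control, 125, 125, 121 and 133 CPM with siRNA 1, and 127, 129, 131 and 131 CPM with siRNA 2. Every siRNA library was below control, but only siRNA 1 passed, with a log2 fold change of -0.17 (SE 0.05, edgeR adjusted p = 0.0324) against -0.13 for siRNA 2 (edgeR adjusted p = 0.0773). The siRNA 1 call was lost in 6 of the 11 fits without 1 library: each of control replicates 1, 2 and 3 and siRNA 1 replicates 1, 2 and 3 (adjusted p up to 0.14), and with no filter on low counts (adjusted p = 0.0601). Epb41l4aos and Dancr had log2 fold changes of -0.30 and -0.20 with siRNA 2 and did not pass. The other 5 hosts, Cct6a, 2700038G22Rik, AA465934, Gm26945 and AI506816, lay between 0.031 and 0.12 with siRNA 2. The snoRNA genes themselves held 0.1% to 0.119% of gene counts in control, 0.097% to 0.112% with siRNA 1 and 0.078% to 0.0969% with siRNA 2. Whether reads of the snoRNAs themselves enter the host counts was not tested. Gas5, a snoRNA host left out by the rule, had log2 fold changes of -0.13 with siRNA 1 and -0.26 with siRNA 2 (edgeR adjusted p = 0.21 and 0.00158). Rian, also left out by name, had 0.12 and -0.007 (edgeR adjusted p = 0.147 and 0.953). Values of the genes left out through their Snhg symbols are not given here.

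**Figure D2:**
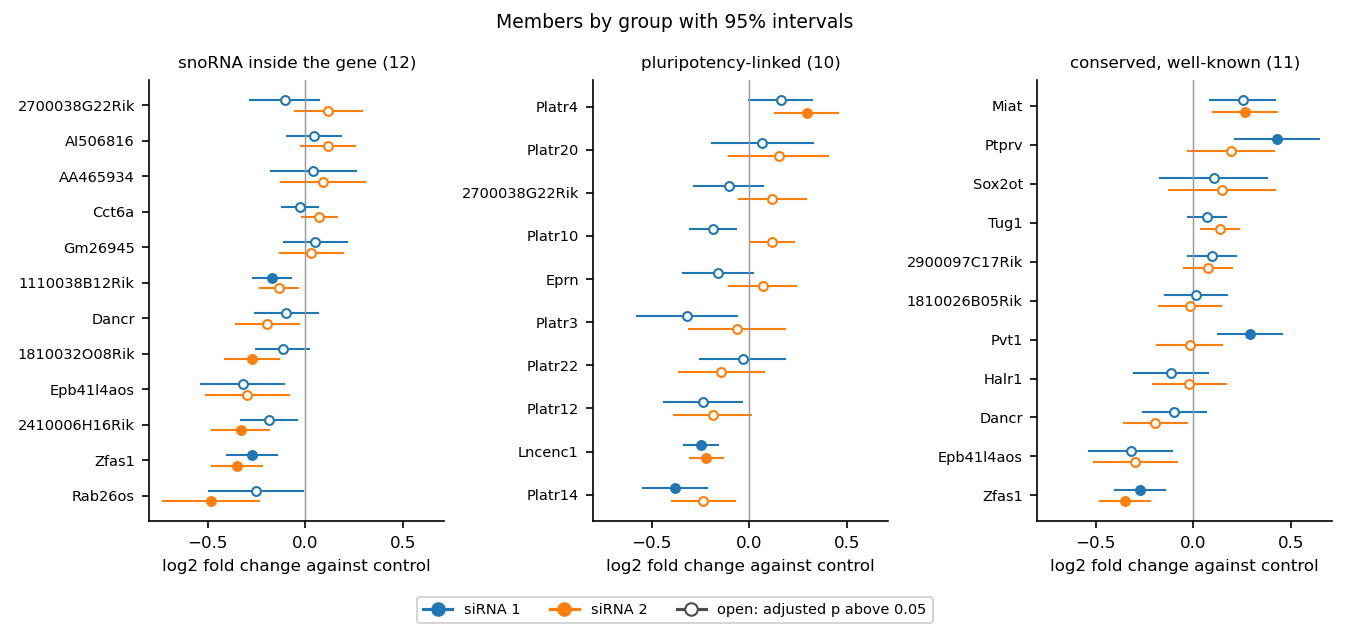
Log2 fold change against control (horizontal axis) with 95% intervals for members with a snoRNA inside, pluripotency-linked members and conserved, well-known members; blue is siRNA 1, orange is siRNA 2, and filled circles passed the test. Among the 12 snoRNA hosts the filled circles are all below 0, and among the 10 pluripotency-linked members they lie on both sides.

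Among the conserved, well-known long noncoding RNAs, some members passed in each direction and others were near their control level. Of 11 members on this list, Zfas1 fell and Ptprv and Pvt1 rose with siRNA 1, and Zfas1 fell and Miat rose with siRNA 2. Ptprv is counted because it was written on the list, although RefSeq lists it as a transcribed pseudogene. The calls are 27.3% and 18.2% of the list, against 4.67% and 9.72% of all genes tested, and 5 of the 11 had an unadjusted p under 0.05 with each siRNA. The medians were 0.069 and -0.018. Cyrano (1700020I14Rik) was written on this list as Oip5os1, was not matched under that name and is not among the 11. Its log2 fold changes were 0.033 with siRNA 1 and -0.175 with siRNA 2 (edgeR adjusted p = 0.822 and 0.0299). Tug1, an abundant conserved RNA, measured 162, 155 and 148 CPM in control, 166, 169, 156 and 160 CPM with siRNA 1, and 169, 167, 173 and 172 CPM with siRNA 2. The siRNA 2 libraries were above control, with a log2 fold change of 0.14 (edgeR adjusted p = 0.0693), and those of siRNA 1 overlapped it. Norad (2900097C17Rik), which binds Pumilio proteins, had log2 fold changes of 0.095 and 0.075, and Chaserr (1810026B05Rik), the neighbour of Chd2, 0.014 and -0.018. Miat, a long nuclear RNA, measured 32.2, 31.3 and 33.5 CPM in control, 40.8, 43.9, 33.0 and 36.2 CPM with siRNA 1, and 42.3, 37.8, 40 and 35.7 CPM with siRNA 2. The siRNA 2 libraries were all above control (log2 fold change 0.27, SE 0.084, edgeR adjusted p = 0.0349), and 1 siRNA 1 library was not (0.25, edgeR adjusted p = 0.0765). The Miat call was lost with TMM factors and DESeq2 (adjusted p = 0.0588 and 0.158), and without control replicate 1, 2 or 3 or siRNA 2 replicate 1 or 3 (adjusted p up to 0.138).

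Among members that rose, Trerf1 rose with both siRNAs. It measured 85.8, 79.9 and 80.8 CPM in control, 97.2, 98.7, 91.3 and 95.4 CPM with siRNA 1, and 106, 108, 101 and 90.9 CPM with siRNA 2, and no siRNA library overlapped control. The increase was 0.22 on the log2 scale with siRNA 1 (SE 0.06, edgeR adjusted p = 0.021) and 0.30 with siRNA 2 (SE 0.059, edgeR adjusted p = 0.000489). The siRNA 1 call was lost without control replicate 2, control replicate 3 or siRNA 1 replicate 2 (adjusted p = 0.134, 0.0967 and 0.0867) and with DESeq2 (adjusted p = 0.0998). Ptprv, which RefSeq lists as a transcribed pseudogene of a receptor phosphatase, measured 18.5, 16.3 and 17 CPM in control, 26.1, 24.4, 19.5 and 22.9 CPM with siRNA 1, and 19.9, 22.7, 20.5 and 15.8 CPM with siRNA 2. The siRNA 1 libraries were above control (log2 fold change 0.43, SE 0.109, edgeR adjusted p = 0.0134), and siRNA 2 overlapped it (0.19, edgeR adjusted p = 0.304). The siRNA 1 call was lost without control replicate 2, control replicate 3, siRNA 1 replicate 1 or siRNA 1 replicate 2 (adjusted p up to 0.105) and with DESeq2 (adjusted p = 0.0597). B130055M24Rik rose with siRNA 2, from 22.5, 20 and 19.8 CPM in control to 27.3, 31.0, 32.4 and 24.9 CPM, with siRNA 1 between at 25.2, 24.9, 21.4 and 22.7 CPM. Its siRNA 2 log2 fold change was 0.48 (SE 0.095, edgeR adjusted p = 0.000602). Gm20045 measured 14.1, 10.2 and 11.6 CPM in control, 15.9, 15.3, 14.1 and 12 CPM with siRNA 1, and 19.7, 15.5, 16.3 and 15.4 CPM with siRNA 2. The siRNA 2 libraries were above control, and the log2 fold change was 0.48 (SE 0.124, edgeR adjusted p = 0.00861). Without control replicate 2 or siRNA 2 replicate 1 this call was lost (adjusted p = 0.102 and 0.0539). Brip1os and Gm45250 passed with siRNA 2 at edgeR adjusted p = 0.0447 and 0.0449, and each call was lost with TMM factors, with DESeq2, with no filter on low counts and in 6 of the 11 fits without 1 library, the highest adjusted p being 0.332 without control replicate 2 for Brip1os and 0.18 without it for Gm45250.

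Bc1, a short RNA that RNA polymerase III makes and that is best known from neurons, rose with siRNA 2. It measured 18.4, 19.7 and 17.9 CPM in control, 16.9, 17.6, 20.3 and 18.2 CPM with siRNA 1, and 26.1, 22.2, 20.2 and 25.4 CPM with siRNA 2. The siRNA 2 libraries lay above control. The log2 fold change was 0.33 against control (SE 0.099, edgeR adjusted p = 0.0281) and 0.36 against siRNA 1 (SE 0.093, edgeR adjusted p = 0.0106). The gene is 168 bases long, and 11.7% of its 75-base words occur in other genes. The call against control was lost without control replicate 1, control replicate 3, siRNA 2 replicate 1 or siRNA 2 replicate 4 (adjusted p up to 0.122), with DESeq2 (adjusted p = 0.141) and with the replicate block (adjusted p = 0.0569), and the call against siRNA 1 without siRNA 2 replicate 1 (adjusted p = 0.0593). In the siRNA 2 libraries the fibroblast marker list was also higher, and its 6 genes summed to between 34.1 and 38.9 CPM, against 23.3 to 27.8 CPM in control and 24.7 to 28.5 CPM with siRNA 1. Among them Col1a1 rose by 0.75 and Dcn by 1.13 on the log2 scale with siRNA 2 (edgeR adjusted p = 6.4e-05 and 0.00209), Col3a1 fell by 1.42 (edgeR adjusted p = 0.018), and Postn stayed under 1 CPM in every library. The part of these values in the siRNA 2 results was not tested.

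**Figure D3:**
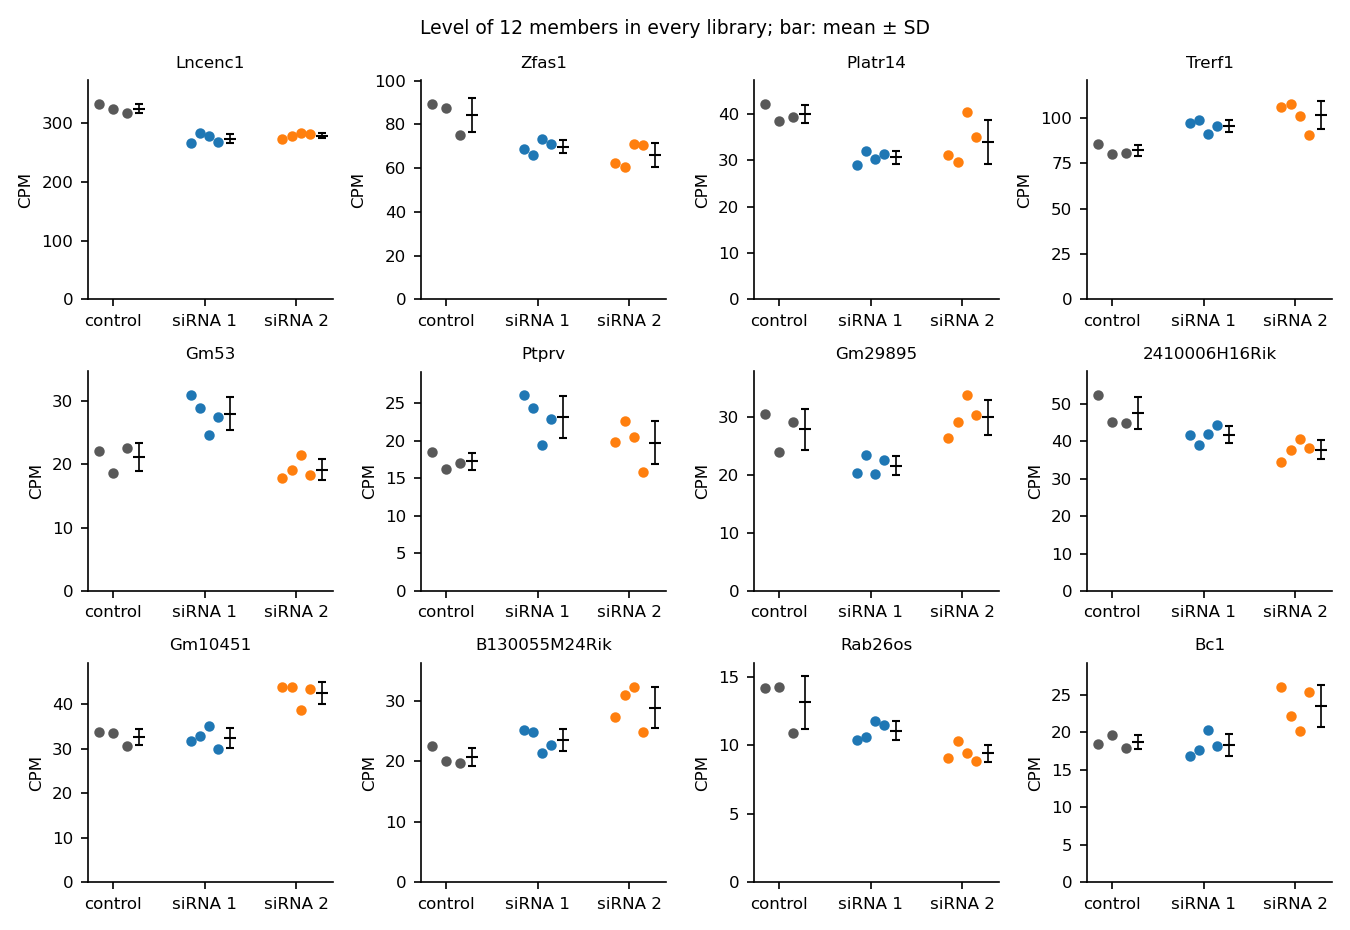
CPM (vertical axis, from 0) of 12 members in the 3 control, 4 siRNA 1 and 4 siRNA 2 libraries; points are libraries and black bars are the mean ± SD. Lncenc1 and Zfas1 are below control with both siRNAs, Gm53 and Ptprv are highest with siRNA 1, and Gm10451, B130055M24Rik and Bc1 are highest with siRNA 2.

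The siRNAs were also compared directly, a comparison in which the control libraries enter only through the shared estimate of spread. With siRNA 2 against siRNA 1, 17 members passed, 8 lower and 9 higher. That is 12.7% of members, against 7.44% of all genes tested and 9.74% of genes with at least 50 counts in each library. Of all genes tested, 2.96% passed as lower and 4.49% as higher. In 13 members the libraries of the siRNAs did not overlap, against 11.8% of all genes tested. The median log2 difference was 0.026 over members and 0.002 over all genes tested. DESeq2 called 10 members, and leaving out siRNA 1 replicate 1 left 9.

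Gm53, a lincRNA, was high with siRNA 1. It measured 22.1, 18.6 and 22.6 CPM in control, 30.9, 28.8, 24.6 and 27.5 CPM with siRNA 1, and 17.8, 19.1, 21.4 and 18.3 CPM with siRNA 2. The siRNA 1 libraries did not overlap either other group. The log2 difference of siRNA 2 against siRNA 1 was -0.54 (SE 0.089, edgeR adjusted p = 5.33e-05), and siRNA 1 against control was 0.40 (SE 0.095, edgeR adjusted p = 0.00622), a call lost without control replicate 2 (adjusted p = 0.111). Gm10451 was high with siRNA 2, at 43.8, 43.9, 38.7 and 43.3 CPM, against 33.8, 33.4 and 30.6 CPM in control and 31.6, 32.9, 35.0 and 29.8 CPM with siRNA 1. Every siRNA 2 library was above all 7 others. Its log2 difference from siRNA 1 was 0.39 (SE 0.07, edgeR adjusted p = 0.000192) and from control 0.38 (SE 0.076, edgeR adjusted p = 0.000604). Platr10 measured 85.1, 85.5 and 81.7 CPM in control, 67.1, 74.5, 78.5 and 74.8 CPM with siRNA 1, and 94.9, 91.1, 85.5 and 92.9 CPM with siRNA 2. It was below control with siRNA 1 and at or above it with siRNA 2, and the difference between the siRNAs was 0.30 (SE 0.055, edgeR adjusted p = 0.000214). Neither siRNA passed against control for Platr10 (edgeR adjusted p = 0.0566 and 0.225).

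Gm29895 measured 30.5, 23.9 and 29.2 CPM in control, 20.3, 23.4, 20.2 and 22.6 CPM with siRNA 1, and 26.4, 29.2, 33.8 and 30.3 CPM with siRNA 2. The siRNA 1 libraries were the 4 lowest of the 11. The difference of siRNA 2 against siRNA 1 was 0.47 (SE 0.088, edgeR adjusted p = 0.000388). The siRNA 1 call against control (-0.36, edgeR adjusted p = 0.0187) was lost without control replicate 1 or 3 or siRNA 1 replicate 1 or 3 (adjusted p up to 0.139). 1700020I14Rik is the RNA Cyrano (Oip5os1), which directs the decay of miR-7. It measured 135, 122 and 123 CPM in control, 135, 134, 124 and 126 CPM with siRNA 1, and 107, 111, 113 and 117 CPM with siRNA 2. Every siRNA 2 library was the lower, and the log2 fold change was -0.21 against siRNA 1 (SE 0.05, edgeR adjusted p = 0.00587) and -0.17 against control (SE 0.053, edgeR adjusted p = 0.0299). The call against control was lost without control replicate 1 or 3 or siRNA 2 replicate 1 or 2 (adjusted p up to 0.2). Pvt1, which lies beside Myc, measured 40.6, 35.3 and 46.8 CPM in control, 55.2, 51.6, 43.3 and 49.9 CPM with siRNA 1, and 36.1, 40.1, 45.2 and 39.6 CPM with siRNA 2. Its libraries overlapped in every comparison, and siRNA 2 was lower than siRNA 1 by -0.31 on the log2 scale (SE 0.077, edgeR adjusted p = 0.00794). Its siRNA 1 call against control (0.29, edgeR adjusted p = 0.0302) was lost with DESeq2 and without control replicate 1 or 2 or siRNA 1 replicate 1, 2 or 4 (adjusted p up to 0.33).

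The miRNA hosts are shown with mature sequences from RefSeq (GRCm38.p6), since the files measure the host RNA and not the miRNA. The seed, bases 2 to 8, is in capitals. The pairs miR-17-5p and miR-20a-5p, miR-19a-3p and miR-19b-3p, miR-15a-5p and miR-16-5p, and let-7a-5p and let-7f-5p each share a seed.
miR-17-5p, in Mir17hg: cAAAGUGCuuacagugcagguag
miR-20a-5p, in Mir17hg: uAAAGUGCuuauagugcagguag
miR-19a-3p, in Mir17hg: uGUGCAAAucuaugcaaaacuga
miR-19b-3p, in Mir17hg: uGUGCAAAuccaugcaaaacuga
miR-15a-5p, in Dleu2: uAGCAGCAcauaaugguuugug
miR-16-5p, in Dleu2: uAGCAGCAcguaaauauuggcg
let-7a-5p, in 6720427I07Rik: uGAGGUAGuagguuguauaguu
let-7f-5p, in 6720427I07Rik: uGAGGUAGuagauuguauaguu

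Of 8 members with a miRNA gene inside, 1 passed against control with siRNA 1 (Mir124a-1hg, lower) and none with siRNA 2, by edgeR, where 3 had an unadjusted p under 0.05. That is 12.5% and 0% of the 8, against 4.67% and 9.72% of all genes tested. Between the siRNAs, 3 of the 8 were lower with siRNA 2 and none higher by edgeR. That is 37.5%, against 7.44% of all genes tested. DESeq2 called 0 of the 8 with either siRNA. Mir124a-1hg, which holds Mir124a-1, measured 21.3, 19.1 and 22.5 CPM in control, 18, 17.2, 16.9 and 13.8 CPM with siRNA 1, and 19.6, 18.4, 17.5 and 15.6 CPM with siRNA 2. The siRNA 1 libraries were all below control, with a log2 fold change of -0.35 (SE 0.105, edgeR adjusted p = 0.0425), and the call was lost without control replicate 1 or 3 or siRNA 1 replicate 2, 3 or 4 (adjusted p up to 0.202), with DESeq2 (adjusted p = 0.091) and with the replicate block (adjusted p = 0.112). Mir17hg, the host of the oncogenic miR-17 to miR-92 cluster, measured 91.0, 73.5 and 70.9 CPM in control, 85.5, 85.2, 67.4 and 69.9 CPM with siRNA 1, and 71.2, 69.9, 72.5 and 67.7 CPM with siRNA 2. The groups overlapped, and its log2 fold changes were -0.030 and -0.16. Dleu2, host of Mir15a and Mir16-1, had 0.19 and 0.25, and the let-7 host 6720427I07Rik 0.13 and -0.023. Mirg, a maternally expressed host of 14 miRNA genes, measured 211, 181 and 199 CPM in control, 235, 238, 183 and 198 CPM with siRNA 1, and 181, 178, 198 and 169 CPM with siRNA 2. Its groups overlapped, although siRNA 2 was below siRNA 1 by -0.24 on the log2 scale (SE 0.059, edgeR adjusted p = 0.00877). That call was lost with DESeq2 (adjusted p = 0.131) and without siRNA 1 replicate 1 or 2 (adjusted p = 0.0566 and 0.0897).

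None of the 5 imprinted members (Kcnq1ot1, Nespas, Mirg, Platr20 and B830012L14Rik) passed against control by edgeR, where 0 with siRNA 1 and 1 with siRNA 2 had an unadjusted p under 0.05, or by DESeq2, which called 0. Of all genes tested, 4.67% and 9.72% passed by edgeR. Between the siRNAs, 2 of the 5, Mirg and Nespas, were lower with siRNA 2 by edgeR. That is 40% of the list, against 7.44% of all genes tested, and both calls were lost with DESeq2 (adjusted p = 0.131 and 0.0894). Kcnq1ot1, the long unspliced paternal RNA that silences genes of its imprinted domain, took 19.4% to 23.4% of the members' counts. It spans chr7:143203458-143296549 (GRCm38, minus strand) as 1 exon block of 93092 bases. It measured 1320, 1236 and 1320 CPM in control, 1356, 1378, 1258 and 1363 CPM with siRNA 1, and 1238, 1157, 1528 and 1380 CPM with siRNA 2. The groups overlapped, siRNA 2 held both the lowest and the highest library, and the log2 fold changes were 0.051 and 0.037.

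Across libraries, Kcnq1ot1 moved with the reads that fell outside annotated exons, which ran from 73.4 to 90.5 per 100 gene reads. Both values are divided by the gene counts of the same library. A shared divisor can raise r by itself, and the permutation p does not allow for it. Over 10 libraries Pearson's r was 0.923 (permutation p = 6e-05, adjusted 0.00018) and Spearman's rho was 0.879 (permutation p = 0.00174, adjusted 0.00522), with adjustment over 3 relations. Without the 2 libraries farthest from the median, both of siRNA 2, r was 0.901, and r of the deviations from group means was 0.972. The summed CPM of the other single-block members gave r of 0.373 (permutation p = 0.283) and that of multi-block members 0.616 (permutation p = 0.0499, adjusted 0.0748). siRNA 2 replicate 4 entered none of these, since the total of reads outside exons was not used for it. The part of unspliced or intergenic RNA in the Kcnq1ot1 level was not tested.

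**Figure D4:**
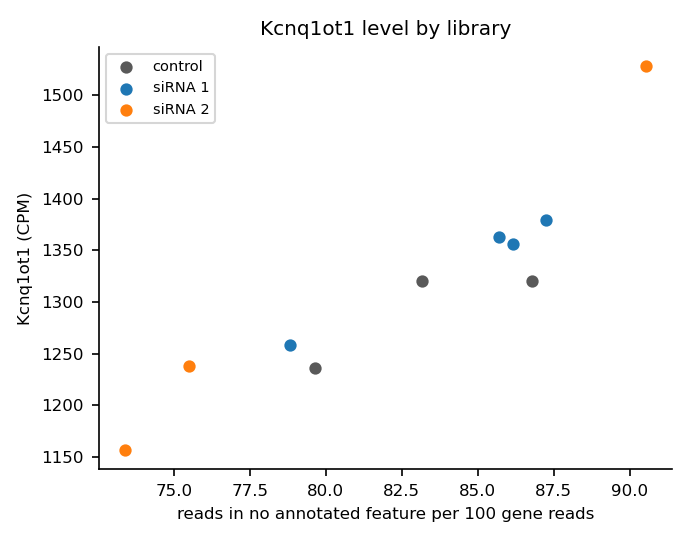
Kcnq1ot1 in CPM (vertical axis) against reads in no annotated feature per 100 gene reads (horizontal axis) for 10 libraries, coloured by group. Kcnq1ot1 rises from 1157 CPM at 73.4 to 1528 CPM at 90.5, and the groups overlap along both axes.

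Nearby coding genes were set beside the members that start close to them. Of the 134 members, 28 had a coding gene starting on the opposite strand within 2 kb, 17 only overlapped coding exons, and 89 had neither. The neighbour was tested in 27 and 13 of these, and 3 of the 40 passed with siRNA 1 and 8 with siRNA 2, where 4.67% and 9.72% of all genes tested passed. Member and neighbour had the same sign in 14 of 27 pairs with close starts and 10 of 13 overlapping pairs with siRNA 1, and in 16 of 27 and 6 of 13 with siRNA 2. Without siRNA 1 replicate 2 the number of neighbours that passed with siRNA 1 was 1. Zfas1 starts 81 bases from Znfx1, which encodes a zinc-finger helicase-like protein and fell by 0.23 with siRNA 1 (edgeR adjusted p = 0.0281) and by 0.22 with siRNA 2 (edgeR adjusted p = 0.0233) on the log2 scale. Rab26os starts 310 bases from Traf7, which fell by 0.25 with siRNA 2 (edgeR adjusted p = 0.000712), while its siRNA 1 value was -0.058. Tug1 starts 482 bases from Morc2a, which rose by 0.20 with siRNA 2 (edgeR adjusted p = 0.00271). Kmt2e, beside 5031425E22Rik, rose by 0.27 with siRNA 1 (edgeR adjusted p = 0.0113), where the member had 0.16 and did not pass. Other neighbours that passed with siRNA 2 differed in direction or size from their member. Bahcc1 fell by 0.27 (edgeR adjusted p = 0.00391) beside 2900052L18Rik at 0.18, and Gnas rose by 0.27 (edgeR adjusted p = 0.000712) beside Nespas at -0.13. Cdk5rap3 fell by 0.27 (edgeR adjusted p = 0.00414) beside D030028A08Rik at -0.087, and Zfp984 rose by 0.36 (edgeR adjusted p = 0.00174) beside Gm20707 at 0.035, and none of these 4 members passed. B130055M24Rik starts 522 bases from Zfp689, which had log2 fold changes of -0.015 and -0.15 and did not pass. Nphs1os, whose exons overlap those of Nphs1, had log2 fold changes of -0.41 and -0.34 (edgeR adjusted p = 0.0664 and 0.0977), and Nphs1 fell by 0.44 and 0.32 (edgeR adjusted p = 4.36e-05 and 0.00159). A630072M18Rik, which passed as higher with siRNA 2, shares 95% of its exonic bases with Rsbn1l on the other strand, and Rsbn1l had log2 fold changes of 0.10 and 0.11 and did not pass. It was measured at only 7.52 to 8.21 CPM in control, 8.58 to 11.9 CPM with siRNA 1 and 10.5 to 12 CPM with siRNA 2, and the call was lost without control replicate 2 (adjusted p = 0.0721) and with DESeq2 (adjusted p = 0.0757).

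**Figure D5:**
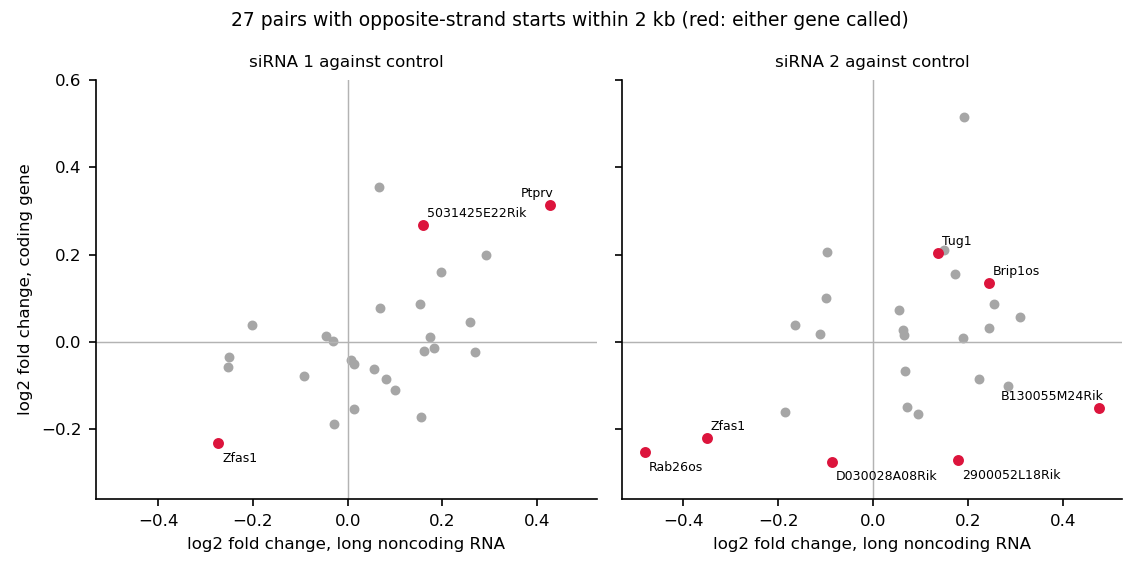
Log2 fold change of the coding gene (vertical axis) against that of the long noncoding RNA (horizontal axis) for 27 pairs whose starts lie within 2 kb on opposite strands, for siRNA 1 and siRNA 2; red pairs have at least 1 gene with an adjusted p of at most 0.05 and are named by the noncoding gene. Zfas1 with Znfx1 is at the lower left in both panels, and Rab26os with Traf7 joins it with siRNA 2.

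The nuclear machinery that trims and degrades noncoding transcripts was read from a list of 42 tested genes for the RNA exosome, its adaptors, the cap-binding complex and the Integrator. None passed with siRNA 1 by edgeR, where 4.67% of all genes tested passed, and 5 of the list had an unadjusted p under 0.05. DESeq2 called 0 with siRNA 1 and 1 with siRNA 2. With siRNA 2, Exosc5, an exosome subunit, fell by 0.18 (edgeR adjusted p = 0.0305) and Mtrex, the exosome helicase, rose by 0.15 (edgeR adjusted p = 0.0427) on the log2 scale. These are 4.76% of the list, against 9.72% of all genes tested. Between the siRNAs, Exosc5, Exosc7 and Ints14 were lower with siRNA 2. These are 7.14% of the list, close to the 7.44% of all genes tested. The medians over the list were 0.023 and -0.017.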

How the data were processed

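RNA-seq libraries of E14 ESCs were compared between control scramble siRNA (3 libraries), CMTR1 siRNA 1 (4) and CMTR1 siRNA 2 (4). The authors trimmed reads with Cutadapt, aligned them to GRCm38/mm10 with STAR, removed PCR duplicates with Picard and counted reads per gene with featureCounts, and deposited raw counts per gene for each library. Tool versions are not given in the sources used here. Summary lines for reads outside genes were kept out of library totals, which were 6738478 to 8382318. Of 54838 gene identifiers, 54809 were found in the annotation. Genes above 1 CPM in at least 4 libraries (16073) were fitted in one model of the 3 groups with edgeR 4.0.16 (quasi-likelihood, library-size scaling, R 4.3.3, limma 3.58.1), with Benjamini-Hochberg adjustment over all genes tested and a threshold of 0.05. The quasi-likelihood test replaced the study's exact test. On simulated counts for siRNA 1 against control with 200 of 16073 genes changed, 100 of 100 2-fold and 89 of 100 smaller changes (the square root of 2-fold) were recovered, and 9 unchanged genes were called. Changes smaller than these, such as all those called in members with siRNA 1, were not simulated, and simulated libraries were drawn independently.

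The members and gene lists were chosen with earlier results of these data known. Members were named when they passed against control without overlap of libraries (at most 12 per siRNA), when among the 5 lowest adjusted p between the siRNAs, among the 6 highest levels per kilobase, in a role list, at the count limit, or as a coding neighbour. Other members named, among them 1810032O08Rik, Brip1os, Gm45250, Nphs1os and the remaining snoRNA and miRNA hosts, were chosen after their values were seen. The alternatives were TMM factors, DESeq2 1.42.0, the edgeR exact test, other filters, fits of the groups in pairs, a replicate block, leaving out each library and other member rules. The alternatives by RefSeq type, shared words and RefSeq start were chosen after seeing the data. Same-numbered libraries of different groups did not deviate together, so the numbers were not treated as pairs. Within each siRNA group, replicates 1 and 2, and 3 and 4, deviated together more than other pairs. Deviations from the group mean correlated at -0.26 and -0.27 with siRNA 1, against -0.33 to -0.41 for its other pairs. With siRNA 2 they correlated at -0.21 and -0.22, against -0.38 to -0.42. The labels name no such subgroups. The main fit treated these libraries as independent, and the effect on the calls was not tested.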

Additional observations from a re-analysis of the deposited data

Results flagged for a closer look

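In 114 groups of 4 libraries, 6 had 1 library far from the rest by Dixon's criterion, which chance alone meets in about 1 in 20 groups. Gm10451 measured 38.7 CPM in siRNA 2 replicate 3 against 43.3 to 43.9 in the other libraries of that group. Brip1os measured 38.6 CPM in siRNA 1 replicate 4 against 34.1 to 34.3. Platr22 measured 13.2 CPM in siRNA 1 replicate 3 against 16.6 to 17.2, and Dleu2 23.2 CPM in siRNA 2 replicate 4 against 25.7 to 25.9. Gm45250 measured 10.3 CPM in siRNA 1 replicate 2 against 8.15 to 8.19. The members without Kcnq1ot1 summed to 4988 CPM in siRNA 2 replicate 3 against 4805 to 4832.

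Of the 134 members, 17 (12.7%, against 7.44% of all genes tested) differed between siRNA 2 and siRNA 1 by the edgeR quasi-likelihood test of that difference, although both target the same gene. Lower with siRNA 2 were Gm53 (log2 difference -0.54), 2610307P16Rik (-0.38), Pvt1 (-0.31), Tmem250-ps (-0.29), Zswim6 (-0.25), Mirg (-0.24), 1700020I14Rik (-0.21) and Nespas (-0.18). Higher with siRNA 2 were Gm29895 and Gm45250 (0.47 each), Gm10451 (0.39), AI838599 and Bc1 (0.36 each), Platr10 and B130055M24Rik (0.30 each), 1700108F19Rik (0.23) and 1700001L05Rik (0.19). The adjusted p ran from 5.33e-05 for Gm53 to 0.0477 for 1700001L05Rik.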

How the results depend on the processing

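Of 43 calls of members over the 3 comparisons, 14 were kept under all 18 alternative fits and 29 were lost under at least 1, and no called value changed sign. Calls with siRNA 1 numbered 6 with DESeq2, 5 among lincRNA members and 4 to 13 when 1 library was left out, against 10 as reported. Calls with siRNA 2 numbered 8 among lincRNA members, 9 among members with under 10% exonic overlap, 10 among members with at most 10% of their words in other genes and 9 to 17 when 1 library was left out, against 16. Calls between the siRNAs numbered 10 with DESeq2 and 9 to 16 when 1 library was left out, against 17. Fewer members entered the restricted lists, and the cause of the other shifts was not tested. The share of first base A was 20.7% at RefSeq starts. Coding neighbours called with siRNA 1 numbered 5 with the replicate block and 1 to 3 when 1 library was left out, against 3. With the replicate block, members called numbered 12, 15 and 16; same-numbered libraries of different groups correlated at 0.0087 on average over 10 pairs (-0.0517 to 0.0547). Counts of 50 to 126 in the lowest library, as in the lower part of the members, limit what fold changes can be detected.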
